A study of Homo sapiens with 19 samples.

Results

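The non-HOX developmental homeobox genes of H1 human embryonic stem cells (hESCs) were followed through loss of polycomb repressive complex 2 (PRC2). The set held 43 genes of the DLX, MSX, IRX, NKX, PITX, PRRX and related families, chosen by gene symbol among the 33382 genes quantified, and 43 of 43 were found. The genes were chosen with earlier results of these data known. They were sorted into 11 families. Homeobox genes encode transcription factors that bind DNA through a homeodomain and give cells their position and identity in the embryo, in limb, face, brain, gut and heart. In pluripotent cells many of them sit in CpG-rich regions held silent by PRC2, whose subunits EED and SUZ12 support the methyltransferases EZH1 and EZH2 in placing H3K27me3, a repressive histone mark.

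RNA-seq was analysed in 19 samples. The wild-type (WT) H1 line and 5 knockout lines made from it, EZH1-/- H1, EED-/- H1, SUZ12-/- H1, EZH2-/- H1 and EZH2-/-/EZH1-/- H1 (the double knockout), had 2 samples each. According to the study's methods, the functional domain of each factor was replaced by a drug resistance cassette through CRISPR/Cas9 and homologous recombination, single colonies were expanded, and the double knockout was made by a further round of targeting in a single-knockout line. The H1-EED-/-/EED-OE cells lack the endogenous EED and carry a lentiviral EED transgene that is on with doxycycline (+DOX), and gave 1 +DOX sample and 6 samples without DOX (-DOX), taken 8, 12, 16, 20, 24 and 28 days after withdrawal. The title of the +DOX sample also carries day 28. The 2 samples of a knockout line carry different clone-like or passage-like names, so a p-value measures the spread between these samples only. EED-/- H1, SUZ12-/- H1 and the double knockout are called PRC2-null here and the remaining lines (WT H1, EZH2-/- H1, EZH1-/- H1) retaining, a grouping by H3K27me3 that follows the study's protein blots, which were not analysed here.

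Levels are in TPM, transcript abundances scaled by transcript length and to the same total in every sample, so the depth behind them is unknown. Above 0 TPM were 20350 to 21564 genes in the 6 retaining samples, 21326 to 23012 in the 6 PRC2-null samples and 19117 to 20107 in the H1-EED-/-/EED-OE samples. The targeted genes were still read in their own knockouts. EED stood at 14.25 and 22.36 TPM in EED-/- H1 beside 17.30 and 21.96 in WT H1, and SUZ12 at 22.94 and 20.76 TPM in SUZ12-/- H1 beside 25.21 and 27.89. EZH1 had 12.49 and 17.07 TPM in EZH1-/- H1 and 9.37 and 6.78 in the double knockout, beside 13.71 and 14.29 in WT H1, and EZH2 had 46.94 and 22.02 TPM in EZH2-/- H1 and 31.28 and 20.03 in the double knockout, beside 54.55 and 58.89. TPM over a whole gene counts transcript outside the deleted domain too, so these values check no label. EED reached 108.54 TPM in the +DOX sample and 12.64 to 31.56 at the days after withdrawal, in the direction of the labels. Of 12 pluripotency genes, 11 fell in EED-/- H1, 10 in SUZ12-/- H1, and 11 fell in the double knockout. Their summed level was 6603.65 to 7887.11 TPM in the retaining samples and 240.86 to 585.35 in the PRC2-null samples. By these markers the PRC2-null lines went against their label of embryonic stem cell, as did days 24 and 28, where the sum was 593.30 and 567.26 TPM. The study describes spontaneous differentiation of these lines with loss of pluripotency genes, and of the H1-EED-/-/EED-OE cells after DOX withdrawal. Loss of PRC2 and differentiation thus came together in the PRC2-null lines, and their separate parts were not tested.

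limma was run over 19100 genes, and a change was called where the p adjusted by Benjamini-Hochberg did not exceed 0.01 and the difference reached 3-fold on the log2(TPM + 1) scale. Of the 43 genes, 17 rose in EED-/- H1, 22 in SUZ12-/- H1, and 20 rose in the double knockout, against 16.2%, 14.5% and 11.6% of all tested genes. As shares of the 43 these are 39.5%, 51.2% and 46.5%. In all 3 lines at once 14 genes rose (32.6%, beside 7.82% of all tested genes), a further 3 rose in 2 lines, 11 in 1 line and 15 in none. Of the 14, MSX2, BARX1 and IRX3 alone reached 1 TPM in a retaining sample. The others passed the filter only through the PRC2-null samples, so the shares called higher are a description and no test of the set. In fits of only the 2 lines compared, the double knockout kept 9 of its 20 rises, losing IRX1, IRX3, IRX5, IRX6, BARX1, SHOX2, EMX2, NKX2-2, DLX6, ALX4 and MEOX1, and EED-/- H1 lost EMX2 and EN2, which left 8 genes that rose in all 3 lines. Falls were called for 0, 1 and 0 of the 43, against 6.09%, 5.21% and 5.66% of all tested genes. A gene near 0 TPM in WT H1 cannot fall 3-fold on this scale. Only 6 of the 43 had at least 1 TPM in both WT H1 samples, so a fall could be called for few of them. At an unadjusted p under 0.05 the falls were 3, 2 and 2, and the share of all tested genes at that limit was not computed. The median difference of the 42 genes that could be tested was 1.29, 1.64 and 1.52 on the log2(TPM + 1) scale in EED-/- H1, SUZ12-/- H1 and the double knockout, and that of all tested genes 0.36, 0.22 and 0.19.

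By family, both MSX genes rose in every PRC2-null line. Of 6 DLX genes 2 rose in EED-/- H1, 4 in SUZ12-/- H1, and 2 rose in the double knockout, of 6 IRX genes 2, 3 and 4, and of 7 NKX genes 2, 2 and 2. Of 5 paired-type mesenchymal genes (PRRX1, PRRX2, ALX1, ALX4 and SHOX2) 2, 3 and 3 rose, of 5 brain patterning genes (EMX1, EMX2, EN1, EN2 and GBX2) 2, 2 and 2, and of 3 LIM-type genes (LHX9, LMX1A and LMX1B) 2, 1 and 1. PITX counted 1 of 2 in each line, BARX 1, 2 and 1 of 2, MEOX 0, 0 and 1 of 2, and the 3 remaining genes (PDX1, VENTX and EVX1) 1, 2 and 1. No family was without a rise in at least 1 PRC2-null line. The family sizes are too small to rank the families.

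The remaining gene, LMX1A, never reached 1 TPM in more than 1 line sample and was not tested. Of the 42, 28 reached 1 TPM only in PRC2-null samples and so entered the test through the group in which they were higher. In WT H1 only 6 of the 43 had at least 1 TPM in both samples, and 13 were listed at 0 in both. Every PRC2-null sample lay above every retaining sample for 31 of 43 genes (72.1%, beside 24.2% of all tested genes), and below for 3 (6.98%, beside 13.3%). These shares too are a description and no test of the set. The summed TPM of the 43 genes was 55.20 to 103.04 in the retaining samples, 454.49 and 556.01 in EED-/- H1, 353.36 and 367.39 in SUZ12-/- H1 and 467.82 and 485.52 in the double knockout. In bulk RNA, more cells that express a gene and more RNA of it per cell cannot be told apart.

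**Figure D1:**
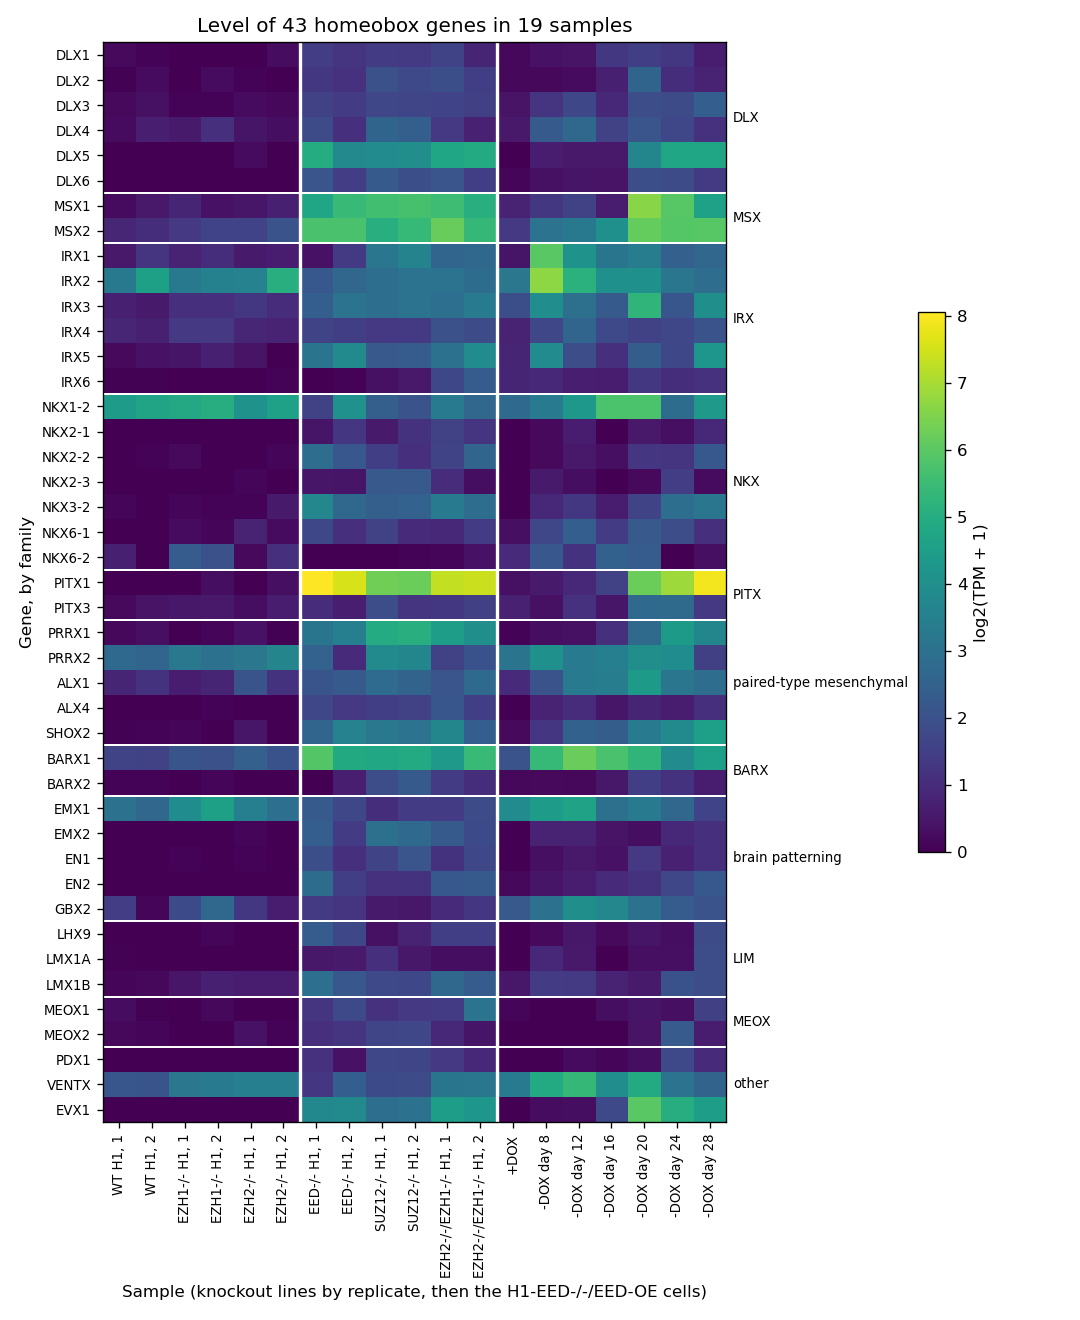
Level of the 43 homeobox genes (rows, by family) as log2(TPM + 1) in the 19 samples (columns), with retaining lines on the left, PRC2-null lines in the middle and the H1-EED-/-/EED-OE cells on the right. PITX1, MSX1, MSX2, DLX5 and EVX1 are dark in the 6 retaining samples and bright in the 6 PRC2-null samples, and IRX1 and IRX2 are brightest at day 8.

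**Figure D2:**
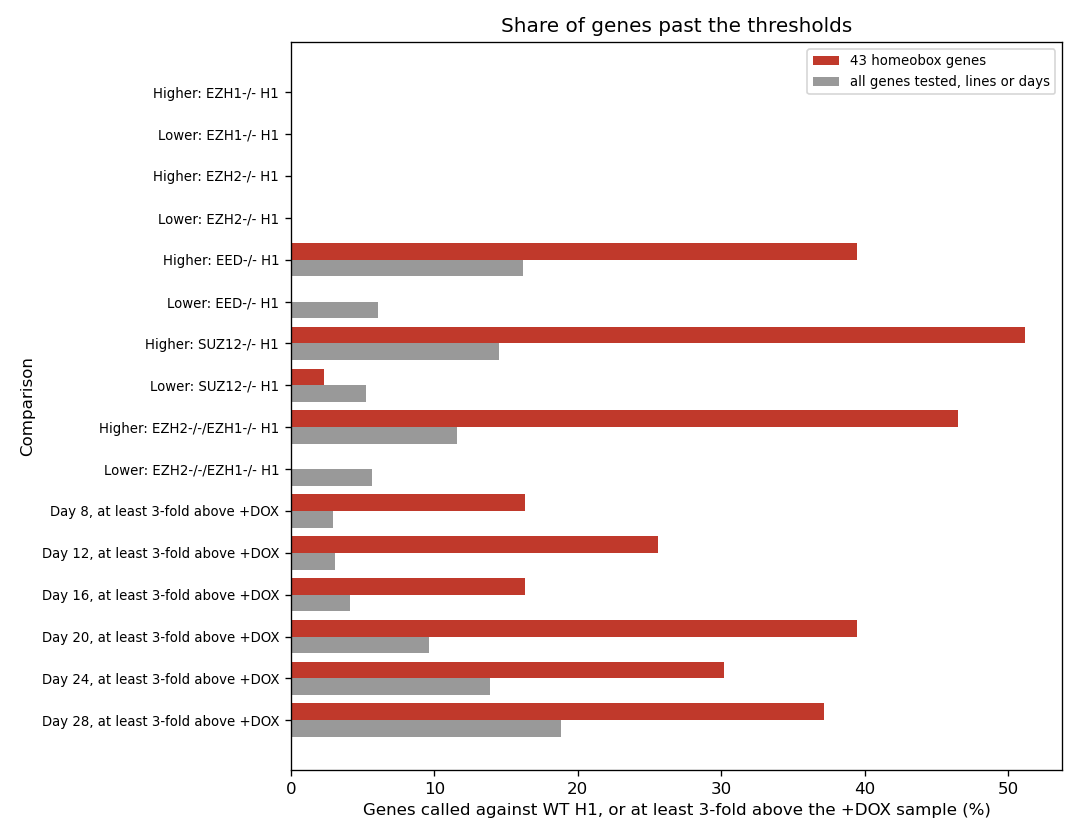
Share of the 43 homeobox genes (red) and of all tested genes (grey) called higher or lower than in WT H1 in each knockout line, or at least 3-fold above the +DOX sample at each day, in percent. In the 3 PRC2-null lines 39.5%, 51.2% and 46.5% of the homeobox genes were called higher, and in the single EZH1 and EZH2 knockouts 0%.

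The promoters were read from RefSeq on GRCh38.p14, as 250 bases before to 50 bases after a transcription start. An entry was found for 28 of the 43 genes. No entry was used for DLX3, DLX4, DLX5, IRX3, IRX5, IRX6, NKX6-2, ALX1, ALX4, BARX1, BARX2, EMX1, EN1, MEOX1 and PDX1. Counting a window as CpG-rich at a GC content of at least 50% and an observed-to-expected CpG ratio of at least 0.6, 25 of the 28 first-listed windows passed (89.3%), beside 46.9% of 27305 genes. The median number of CpG was 29 in the 28 windows and 14 in all. The 4 windows below belong to genes that rose in every PRC2-null line and show windows with different CpG counts, from 17 in EVX1 to 35 in PITX1. Every CpG is in capitals, and letters run 5′ to 3′ on the gene's strand, from chr5:135034179-135034478 (minus strand), chr4:4859415-4859714 (plus strand), chr5:174724332-174724631 (plus strand) and chr7:27242552-27242851 (plus strand).
PITX1: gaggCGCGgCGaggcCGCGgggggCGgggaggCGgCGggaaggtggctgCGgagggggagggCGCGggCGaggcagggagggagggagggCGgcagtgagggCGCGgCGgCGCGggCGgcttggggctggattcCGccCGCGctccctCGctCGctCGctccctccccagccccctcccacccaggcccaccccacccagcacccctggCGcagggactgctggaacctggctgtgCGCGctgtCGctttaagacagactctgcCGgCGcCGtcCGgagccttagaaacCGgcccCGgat
MSX1: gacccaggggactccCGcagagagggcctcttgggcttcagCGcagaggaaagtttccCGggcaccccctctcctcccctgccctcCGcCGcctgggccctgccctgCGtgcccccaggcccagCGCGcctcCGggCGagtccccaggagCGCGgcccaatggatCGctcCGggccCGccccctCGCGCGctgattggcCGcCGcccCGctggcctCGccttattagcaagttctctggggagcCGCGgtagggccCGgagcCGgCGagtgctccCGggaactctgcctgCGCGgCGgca
MSX2: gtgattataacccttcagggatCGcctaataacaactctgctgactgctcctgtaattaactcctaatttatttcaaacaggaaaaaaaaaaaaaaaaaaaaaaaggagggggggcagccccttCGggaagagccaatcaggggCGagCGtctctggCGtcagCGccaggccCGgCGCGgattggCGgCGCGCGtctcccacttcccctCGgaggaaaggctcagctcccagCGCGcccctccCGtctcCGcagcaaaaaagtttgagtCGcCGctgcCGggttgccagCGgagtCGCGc
EVX1: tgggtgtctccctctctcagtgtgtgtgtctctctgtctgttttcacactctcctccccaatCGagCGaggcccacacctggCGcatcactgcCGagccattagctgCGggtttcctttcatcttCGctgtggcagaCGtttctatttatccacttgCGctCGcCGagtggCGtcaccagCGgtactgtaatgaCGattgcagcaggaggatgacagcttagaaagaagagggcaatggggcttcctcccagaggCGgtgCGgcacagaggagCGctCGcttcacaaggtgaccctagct

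Short motifs were searched on both strands in the same windows. GGGCGG, a GC box, was in 21 of the 28 (75%, beside 44.6% of all genes), CCAAT in 17 (60.7%, beside 35.7%), GGCGCC in 9 (32.1%, beside 19%), the homeodomain core TAATTA in 2 (7.14%, beside 4.98%) and TATAAA in 2 (7.14%, beside 12%). MSX2 holds TAATTA and CCAAT, MSX1 CCAAT and GGGCGG, PITX1 GGGCGG and GGCGCC, and EVX1 CCAAT alone of the 5. High CpG content was not limited to genes that rose: IRX2 and NKX1-2, which rose in none of the PRC2-null lines, hold 34 and 41 CpG, while PRRX1 and SHOX2, which rose in all of them, hold 11 and 6 and miss the CpG-rich limit. A motif match is a description of the letters and not a bound site.

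PITX1, a determinant of hindlimb and pituitary identity, showed the largest difference of the set. It was listed at 0 in both WT H1 samples, at 0 and 0.23 TPM in EZH1-/- H1 and at 0 and 0.26 in EZH2-/- H1. It stood at 264.02 and 189.61 TPM in EED-/- H1, 77.83 and 75.02 in SUZ12-/- H1 and 157.45 and 168.67 in the double knockout. The groups were far apart, and the SUZ12-/- samples were the lowest of the PRC2-null samples. The limma difference from WT H1 was 7.81 ± 0.25 (SE), 6.27 ± 0.25 and 7.36 ± 0.25 on the log2(TPM + 1) scale in EED-/- H1, SUZ12-/- H1 and the double knockout (adjusted p = 1.82e-08, 8.29e-08 and 4.4e-08). Its relative PITX3, which acts in lens and midbrain dopamine neurons, was not called in any line, with 0.59 to 2.72 TPM in the PRC2-null samples and 0.16 to 0.53 in the retaining ones.

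MSX1 and MSX2, factors of limb and face that respond to BMP, both rose in every PRC2-null line. MSX1 had 0.17 and 0.48 TPM in WT H1, 0.78 and 0.30 in EZH1-/- H1 and 0.39 and 0.62 in EZH2-/- H1. It had 25.95 and 41.78 TPM in EED-/- H1, 47.93 and 51.31 in SUZ12-/- H1 and 46.06 and 32.98 in the double knockout. SUZ12-/- H1 lay above the other PRC2-null lines, which overlapped each other, and no PRC2-null sample overlapped the retaining ones. MSX2 was already detected in the retaining lines, at 0.81 and 1.06 TPM in WT H1, 1.53 and 2.05 in EZH1-/- H1 and 2.04 and 3.13 in EZH2-/- H1. In the PRC2-null lines it reached 52.37 and 52.10 TPM (EED-/- H1), 32.48 and 41.29 (SUZ12-/- H1) and 70.97 and 40.15 (the double knockout). The differences of MSX1 were 4.69, 5.27 and 4.92 and those of MSX2 4.79, 4.28 and 4.82 on the log2(TPM + 1) scale, with SE of 0.31 throughout.

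The DLX genes, which pattern the branchial arches, forebrain and skeleton, did not move alike. DLX5 was listed at 0 in every retaining sample but 1 and at 0.18 TPM in that one, a sample of EZH2-/- H1. It had 30.97 and 12.95 TPM in EED-/- H1, 13.63 and 14.79 in SUZ12-/- H1 and 25.62 and 29.53 in the double knockout, a difference of 4.40, 3.93 and 4.83 ± 0.35 (SE) on the log2(TPM + 1) scale. Its neighbour DLX6, 9.36 kb away on chromosome 7, was listed at 0 in every retaining sample and reached only 1.74 to 3.84 TPM in the PRC2-null samples. DLX5 and DLX6 rose in all 3 PRC2-null lines, and DLX2 and DLX4 passed the test only in SUZ12-/- H1, at 2.99 and 2.46 TPM and at 5.10 and 4.44 TPM. The calls of DLX6 were lost in EED-/- H1 without its first sample and in the double knockout without its first sample. DLX1 and DLX3 were called in no line although all their PRC2-null samples, at 0.79 to 2.12 and 1.67 to 2.28 TPM, lay above the retaining samples. The pairs DLX1 and DLX2 and DLX3 and DLX4 are likewise neighbours, 9.76 kb and 15 kb apart, and in neither pair were both genes called in the same line. DLX6-AS1, a transcript on the opposite strand that overlaps DLX6, had 1.03 to 3.70 TPM in the PRC2-null samples and up to 0.87 in the retaining ones. The counting is not stated to use strand, so reads of the overlap cannot be told apart.

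Among paired-type genes of the mesenchyme, PRRX1, a factor of limb and craniofacial mesenchyme, was at 0.13 and 0.27 TPM in WT H1, 0 and 0.07 in EZH1-/- H1 and 0.31 and 0.04 in EZH2-/- H1. It had 7.74 and 10.08 TPM in EED-/- H1, 29.93 and 31.83 in SUZ12-/- H1 and 21.88 and 15.15 in the double knockout, each line apart from the others. The differences of PRRX1 were 3.04, 4.73 and 4.0 ± 0.28 (SE) on the log2(TPM + 1) scale. SHOX2, needed for the sinoatrial node and limb, was at 0.03 and 0.05 TPM in WT H1, 0.10 and 0 in EZH1-/- H1 and 0.40 and 0 in EZH2-/- H1. It had 5.13 and 10.92 TPM in EED-/- H1, 8.42 and 7.36 in SUZ12-/- H1 and 11.86 and 4.34 in the double knockout. The differences of SHOX2 were 3.04, 3.09 and 2.99 ± 0.43 (SE) on the log2(TPM + 1) scale, close to one another, and its 2 samples within EED-/- H1 and within the double knockout differed by more than the lines did. ALX1 rose in SUZ12-/- H1 and ALX4, also a craniofacial gene, in the double knockout. The call of ALX1 was lost when either WT H1 or either SUZ12-/- H1 sample was left out, and that of ALX4 without the first double-knockout sample.

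EVX1, a gene of the posterior primitive streak and of spinal interneurons, was listed at 0 in all 6 retaining samples. It had 12.52 and 13.30 TPM in EED-/- H1, 6.45 and 6.96 in SUZ12-/- H1 and 21.55 and 17.76 in the double knockout, so that the 3 lines did not overlap one another. The difference from WT H1 was 3.80, 2.95 and 4.36 ± 0.24 (SE) on the log2(TPM + 1) scale. EVX1-AS, which overlaps it on the opposite strand, was also listed at 0 in all 6 retaining samples and had 0.99 to 12.28 TPM in the PRC2-null samples, and the strand limit given for DLX6 holds here. BARX1, a gene of stomach mesenchyme and tooth, was present before: 2.17 and 1.93 TPM in WT H1, 3.24 and 2.97 in EZH1-/- H1 and 4.48 and 3.08 in EZH2-/- H1. It rose to 58.25 and 28.83 TPM in EED-/- H1, 26.70 and 29.59 in SUZ12-/- H1 and 19.49 and 41.56 in the double knockout, with overlapping lines. The differences of BARX1 were 3.79, 3.26 and 3.28 ± 0.39 (SE) on the log2(TPM + 1) scale. BARX2 passed the test in SUZ12-/- H1 only.

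Of the IRX genes, which pattern the neural plate and heart, IRX3 and IRX5 rose in all 3 PRC2-null lines. IRX3 had 4.25 to 9.26 TPM in the PRC2-null samples and 0.51 to 1.45 in the retaining ones, and IRX5 3.73 to 13.67 and 0 to 0.62. IRX5 was lowest in SUZ12-/- H1, and its call there was lost without the first WT H1 or the second SUZ12-/- H1 sample. IRX2 went the other way, with 8.61 and 22.67 TPM in WT H1, 8.60 and 10.54 in EZH1-/- H1 and 10.87 and 31.99 in EZH2-/- H1, against 3.69 and 5.25 in EED-/- H1, 6.59 and 7.36 in SUZ12-/- H1 and 7.46 and 6.17 in the double knockout. All PRC2-null samples were below all retaining ones, but the samples of WT H1 and of EZH2-/- H1 lay far apart and no fall was called. The 6 IRX genes lie in 2 clusters, IRX4, IRX2 and IRX1 on chromosome 5 and IRX3, IRX5 and IRX6 on chromosome 16, with gaps of 0.39 to 0.859 Mb between neighbours. Within the chromosome 5 cluster IRX1 rose in SUZ12-/- H1 and the double knockout, IRX2 was lower without a call and IRX4 was not called. The IRX1 call in the double knockout was lost without the first WT H1 sample.

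Of the 7 NKX genes, NKX3-2, a gene of the sclerotome and spleen, rose in all 3 PRC2-null lines, at 4.38 to 12.22 TPM against 0 to 0.49 in the retaining samples. NKX2-2, of the ventral neural tube and pancreas, rose in EED-/- H1 (6.37 and 3.55 TPM) and the double knockout (2.12 and 5.12 TPM), with 1.79 and 1.16 TPM in SUZ12-/- H1 and at most 0.14 in the retaining samples. NKX2-1, of thyroid, lung and ventral forebrain, was listed at 0 in the retaining samples and reached no more than 1.93 TPM, and NKX6-1, of beta cells and motor neurons, no more than 2.36. Neither was called. NKX1-2, expressed in the caudal epiblast, was the NKX gene with at least 1 TPM in both WT H1 samples, at 20.28 and 25.07 TPM in WT H1, 27.77 and 31.44 in EZH1-/- H1 and 16.45 and 23.31 in EZH2-/- H1. It had 1.96 and 15.66 TPM in EED-/- H1, 4.42 and 3.14 in SUZ12-/- H1 and 9.17 and 5.37 in the double knockout, lower in every sample but with EED-/- H1 samples far apart. The differences were -1.75, -2.31 and -1.55 ± 0.61 (SE) on the log2(TPM + 1) scale, with a limma adjusted p = 0.0348 in EED-/- H1, 0.01 in SUZ12-/- H1, just short of the threshold, and 0.0623 in the double knockout, so no line was called.

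Genes that pattern the brain were split. EMX2, of the forebrain and urogenital tract, rose in all 3 PRC2-null lines. It had 0 to 0.10 TPM in the retaining and 1.69 to 6.84 in the PRC2-null samples. EN2 rose in EED-/- H1 and the double knockout and EN1 in SUZ12-/- H1, both midbrain-hindbrain genes, at up to 6.16 and 3.36 TPM. In EED-/- H1 the calls of EMX2 and EN2 were lost without the first EED-/- H1 sample, and in SUZ12-/- H1 that of EN1 without the second SUZ12-/- H1 sample. EMX1, of the dorsal telencephalon, was higher in the retaining lines, at 7.26 and 5.31 TPM in WT H1, 14.05 and 22.87 in EZH1-/- H1 and 10.17 and 6.61 in EZH2-/- H1. It had 3.87 and 2.30 TPM in EED-/- H1, 1.07 and 1.61 in SUZ12-/- H1 and 1.63 and 2.63 in the double knockout. It was the only one of the 43 genes called lower, with a difference of -1.64 ± 0.35 (SE) on the log2(TPM + 1) scale in SUZ12-/- H1 (adjusted p = 0.00308), and the call was lost without either WT H1 or either SUZ12-/- H1 sample. GBX2, of the anterior hindbrain, had 1.74 and 0.11 TPM in WT H1, and no difference was called. The transcript EMX2OS, on the strand opposite to EMX2 and overlapping it, had 1.08 to 3.62 TPM in the PRC2-null samples and at most 0.20 in the retaining ones.

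LMX1B, of dorsal limb and kidney, rose in all 3 PRC2-null lines, at 2.36 to 6.66 TPM against 0.11 to 0.63 in the retaining samples. In SUZ12-/- H1 its call was lost without either WT H1 sample or without the first SUZ12-/- H1 sample. LHX9, of the gonads, rose in EED-/- H1, at 4.08 and 2.36 TPM. It had 1.80 and 1.82 TPM in the double knockout and 0.28 and 0.72 in SUZ12-/- H1, beside 0 to 0.09 in the retaining samples, and no difference between PRC2-null lines was called. The untested LMX1A had 0.22 to 1.10 TPM in the PRC2-null samples. MEOX1, of the somites, rose in the double knockout, where its samples stood at 1.68 and 7.43 TPM, and the call was lost without either WT H1 sample or without the second double-knockout sample. MEOX2 was not called. PDX1, a pancreas gene listed at 0 in all retaining samples, rose in SUZ12-/- H1, at 2.28 and 2.22 TPM. VENTX, a homeobox gene responsive to BMP, had 3.49 and 3.25 TPM in WT H1, 8.08 and 9.10 in EZH1-/- H1 and 10.03 and 10.08 in EZH2-/- H1, against 1.42 and 4.28 in EED-/- H1, 2.48 and 2.69 in SUZ12-/- H1 and 7.78 and 7.87 in the double knockout. It was not called.

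**Figure D3:**
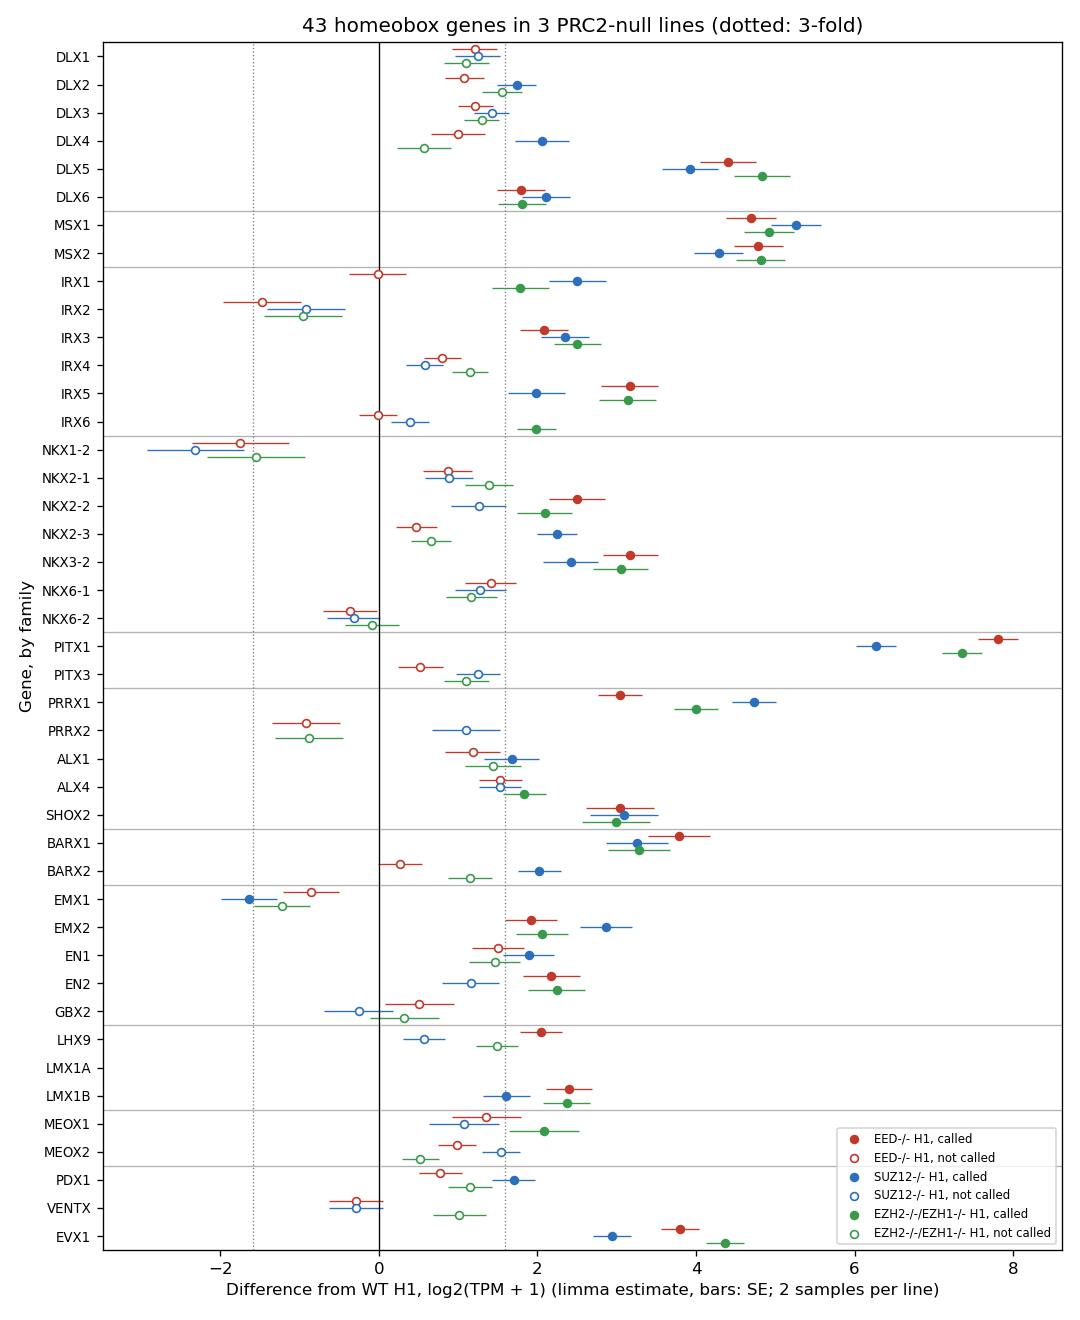
Difference from WT H1 on the log2(TPM + 1) scale for each homeobox gene in EED-/- H1 (red), SUZ12-/- H1 (blue) and the double knockout (EZH2-/-/EZH1-/- H1, green), as limma estimates with SE bars; filled points passed both thresholds, dotted lines mark 3-fold, and LMX1A was not tested. PITX1 lies furthest right, at 7.81, 6.27 and 7.36, and NKX1-2, EMX1 and IRX2 lie left of 0 in all 3 lines.

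The single knockouts asked how these genes stand when only one EZH enzyme is lost. No gene of the 43 was called higher or lower in EZH1-/- H1, against 0.0576% and 0.0419% of all tested genes, or in EZH2-/- H1, against 0% and 0%. At an unadjusted p under 0.05 limma gave 5 higher in EZH1-/- H1 (IRX4, EMX1, NKX6-2, VENTX and GBX2), 2 higher in EZH2-/- H1 (MSX2 and VENTX) and 0 lower in either. The share of all tested genes at this unadjusted limit was not computed, so these counts are no result about the 43 genes. NKX6-2, a neural gene, came nearest, at 4.11 and 2.95 TPM in EZH1-/- H1 beside 0.65 and 0 in WT H1 (difference 1.81 ± 0.34 SE on the log2(TPM + 1) scale, adjusted p = 0.0388). Against EZH2-/- H1, the line that shares its EZH2 deletion, the double knockout had 21 of the 43 genes called higher (48.8%, beside 12.1% of all tested genes).

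Between PRC2-null lines few of the 43 genes differed by the same thresholds. SUZ12-/- H1 and EED-/- H1 differed in either direction for 5 genes (11.6%, beside 6.12% of all tested genes), IRX1, NKX2-3, PRRX1, PRRX2 and BARX2, each higher in SUZ12-/- H1. Over all tested genes 676 were higher and 493 lower in SUZ12-/- H1. IRX1 had 0.30 and 1.57 TPM in EED-/- H1, 7.96 and 11.17 in SUZ12-/- H1 and 5.23 and 5.45 in the double knockout, beside 0.48 and 1.30 in WT H1, 0.72 and 1.07 in EZH1-/- H1 and 0.49 and 0.58 in EZH2-/- H1. EED-/- H1 thus overlapped the retaining lines for this gene, and the other PRC2-null lines did not. NKX2-3, of gut and spleen, had 0.40 and 0.38 TPM in EED-/- H1, 3.77 and 3.74 in SUZ12-/- H1 and 1.02 and 0.23 in the double knockout, and 0 to 0.08 in the retaining samples. BARX2 had 0 and 0.60 TPM in EED-/- H1, 2.76 and 3.86 in SUZ12-/- H1 and 1.62 and 1.07 in the double knockout, and 0 to 0.07 in the retaining samples. The differences of IRX1, NKX2-3, BARX2 and PRRX1 were 2.51, 1.77, 1.76 and 1.70 on the log2(TPM + 1) scale, with adjusted p = 0.00081, 0.000856, 0.00137 and 0.00187 (limma). The call of IRX1 was lost without the second SUZ12-/- H1 sample, that of BARX2 without the second SUZ12-/- H1 or the first EED-/- H1 sample, and that of PRRX1 without either SUZ12-/- H1 or the first EED-/- H1 sample. With a pseudocount of 0.1 only the IRX1 call was kept, and in a fit of only these 2 lines only that of PRRX1.

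PRRX2, a mesenchymal gene related to PRRX1, was already expressed in WT H1, at 5.69 and 5.13 TPM, and had 8.42 and 6.98 in EZH1-/- H1 and 8.11 and 11.72 in EZH2-/- H1. It stood at 4.72 and 1.00 TPM in EED-/- H1, 13.59 and 11.91 in SUZ12-/- H1 and 1.97 and 3.07 in the double knockout. It was thus highest in SUZ12-/- H1 and lowest in the other PRC2-null lines, with a difference of 2.02 ± 0.43 (SE) between SUZ12-/- H1 and EED-/- H1, a call kept in 3 of 12 fits that left out 1 sample. IRX6 was the sole gene that differed between the double knockout and EED-/- H1 (2.33%, beside 0.089% of all tested genes), at 2.35 and 4.03 TPM against 0 and 0.05. It had 0.28 and 0.45 TPM in SUZ12-/- H1, 0.03 and 0.04 in WT H1, 0 in both EZH1-/- H1 samples and 0 and 0.05 in EZH2-/- H1. That call held in 2 of the 12 fits that left out 1 sample and in 1 of 6 other alternatives. The 1 alternative was an FDR of 5% without a fold limit, which keeps every call by construction. The double knockout and SUZ12-/- H1 differed for 2 genes (4.65%, beside 4.46% of all tested genes), IRX6, higher in the former, and NKX2-3, higher in the latter, and both calls were lost without the second double-knockout sample or without either SUZ12-/- H1 sample, with a pseudocount of 0.1 and in a fit of only these lines. The share of the 43 was close to that of all tested genes. PITX1 was lower in SUZ12-/- H1 than in EED-/- H1, with a difference of -1.54 ± 0.25 (SE) on the log2(TPM + 1) scale (adjusted p = 0.00188, limma), short of 3-fold.

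After DOX withdrawal from H1-EED-/-/EED-OE cells, members of the same family could pass 3-fold at different days. Each day has 1 sample, so a level at a day has no error and a gene is counted where it had at least 1 TPM in 2 of these 7 samples and lay at least 3-fold above the +DOX sample on the log2(TPM + 1) scale, with no test. Past it were 7 of the 43 genes at day 8 (2.93% of 17245 genes), 11 at day 12 (3.08%), 7 at day 16 (4.13%), 17 at day 20 (9.62%), 13 at day 24 (13.9%) and 16 at day 28 (18.8%). As shares of the 43 these are 16.3%, 25.6%, 16.3%, 39.5%, 30.2% and 37.2%. First past it at day 8 were DLX4, MSX2, IRX1, IRX2, IRX3, IRX5 and BARX1, at day 12 IRX4, NKX6-1, ALX1, GBX2, VENTX and SHOX2, and at day 16 NKX1-2 and EVX1. At day 20 they were DLX2, DLX5, DLX6, MSX1, NKX3-2, PITX1, PITX3 and PRRX1, and at day 28 DLX3, NKX2-2 and EN2. Of the other 17 genes, 9 stayed under 3-fold and 8 failed the filter. Of those 8, MEOX2 and PDX1 at day 24 and LHX9 and LMX1A at day 28 were past 3-fold, with differences of 2.33, 1.79, 1.85 and 1.90 on the log2(TPM + 1) scale.

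Of the IRX genes, 4 of 6 were past 3-fold at day 8. IRX2 was at 8.23 TPM with DOX, 101.26 at day 8, 34.48 at day 12 and 15.57 at day 16, then 15.33, 8.00 and 6.41 at days 20, 24 and 28. IRX1 was at 0.37 TPM with DOX, 62.42 at day 8, 16.12 at day 12 and 7.82 at day 16, then 9.44, 4.54 and 5.25. These neighbours on chromosome 5 shared the peak, and at day 28 IRX2 was below its +DOX level while IRX1 was above it. IRX3 and IRX5 on chromosome 16 had 2.85 and 0.77 TPM with DOX and 14.35 and 13.81 at day 8, then 3.87 and 1.15 at day 16 and 14.93 and 17.60 at day 28, and IRX3 was highest at day 20, at 37.15 TPM. The summed IRX level was 13.73 TPM with DOX, 195.05 at day 8 and 31.44 at day 16. Neural ectoderm markers were also higher at day 8, with a summed level over 12 genes of 257.02 TPM with DOX, 606.62 at day 8 and 326.68 at day 16, among them ZIC1 (1.32 and 74.06 TPM with DOX and at day 8), SIX3 (0.27 and 37.60) and SOX1 (0.40 and 9.04). Their part in the IRX levels was not tested. Across days 8 to 28, IRX2 was the one gene of the 43 called falling, with a change of -3.56 ± 0.50 (SE) on the log2(TPM + 1) scale over 20 days (limma, adjusted p = 0.00892). Among all 17245 genes tested 114 were called falling. Whether the IRX2 call holds with a day left out was not examined.

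BARX1 was early too, at 3.17 TPM with DOX, 41.05 at day 8, 73.46 at day 12, 52.13 at day 16, 37.11 at day 20, 13.86 at day 24 and 22.32 at day 28. VENTX and GBX2, both expressed with DOX at 9.30 and 3.79 TPM, peaked at day 12 at 40.17 and 15.21 and were at 4.95 and 3.21 at day 28. NKX1-2 had 5.74 TPM with DOX, 53.58 at day 16 and 53.41 at day 20, and then 6.24 and 18.99. In these genes the peak came while POU5F1, the pluripotency factor, was still at 1579.78 to 3467.91 TPM (days 8 to 20), and at days 24 and 28 POU5F1 was at 46.24 and 33.56.

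MSX1, PITX1, DLX5 and EVX1 moved late and steeply. MSX1 was at 0.71 TPM with DOX, 1.49, 1.94 and 0.54 at days 8, 12 and 16, and 96.36, 61.55 and 23.14 at days 20, 24 and 28. PITX1 was at 0.28 TPM with DOX, 0.50, 0.87 and 1.95 at days 8, 12 and 16, and 74.36, 115.89 and 241.78 at days 20, 24 and 28. EVX1 was listed at 0 with DOX, had 0.21 and 0.24 TPM at days 8 and 12 and 2.46 at day 16, peaked at 62.54 at day 20 and stood at 31.23 and 21.45 after. EVX1-AS was listed at 0 up to day 16 and had 33.00, 16.62 and 5.11 TPM at days 20, 24 and 28. DLX5 was listed at 0 with DOX, had 0.45 to 0.58 TPM to day 16 and 11.82, 26.14 and 25.32 TPM at days 20, 24 and 28. MSX2 had 1.52 TPM with DOX, 7.38, 8.57 and 15.59 at days 8, 12 and 16 and 70.46, 59.48 and 60.71 at days 20, 24 and 28. MSX2 was thus past 3-fold from day 8 and MSX1 from day 20. PRRX1 passed 3-fold at day 20 (5.86 TPM) and was highest at day 24 (20.06 TPM).

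Genes at lower levels divided in the same way. DLX4 had 0.45 TPM with DOX, 3.90 and 5.55 at days 8 and 12 and 1.2 at day 28, and NKX6-1 had 0.26 with DOX, 4.25 at day 12 and 1.18 at day 28. ALX1 went from 0.96 TPM with DOX to 9.09 at day 12 and 19.79 at day 20, and was at 6.35 at day 28. These genes had their peak before the end of the course. NKX3-2 was listed at 0 with DOX and had 0.56 TPM at day 16, 6.43 at day 24 and 7.97 at day 28. NKX2-2 was at 0.25 TPM at day 16 and 3.65 at day 28, EN2 at 0.99 and 3.62, and DLX3 at 0.90 and 4.30. In these the highest level was that of the last day, as for 13 of the 43 genes. MEOX2 and PDX1 were above 1 TPM at day 24 alone, at 4.01 and 2.45, and LMX1A at day 28 alone, at 2.74. EMX1 had 13.62 TPM with DOX, 20.40 and 23.90 at days 8 and 12 and 2.10 at day 28, and PRRX2 had 7.65 with DOX, 15.28 at day 8 and 1.90 at day 28. The summed level of the 43 genes was 64.49 TPM with DOX, within the range of the retaining lines, 350.80, 296.16 and 233.27 at days 8, 12 and 16, and 612.05, 452.76 and 557.85 at days 20, 24 and 28.

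In a limma fit of days 8 to 28, with day as a number, 2 of the 43 genes rose (4.65%, beside 1.35% of 17245 genes). PITX1 rose by 8.47 ± 1.08 (SE, adjusted p = 0.00874) and SHOX2 by 3.05 ± 0.43 (adjusted p = 0.00911) on the log2(TPM + 1) scale over 20 days. SHOX2 had 0.15 TPM with DOX and 1.42, 4.66, 4.15, 9.28, 13.49 and 22.15 at the 6 days. Its call was lost when any 1 day was left out, and that of PITX1 was lost without day 8, 12, 24 or 28. Neither gene was called under median-ratio scaling or with no filter, and with the +DOX sample added as day 0 SHOX2 and MSX2 were called and PITX1 was not. A gene that peaks within the course, such as MSX1, EVX1 or BARX1, is not described by a straight line.

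**Figure D4:**
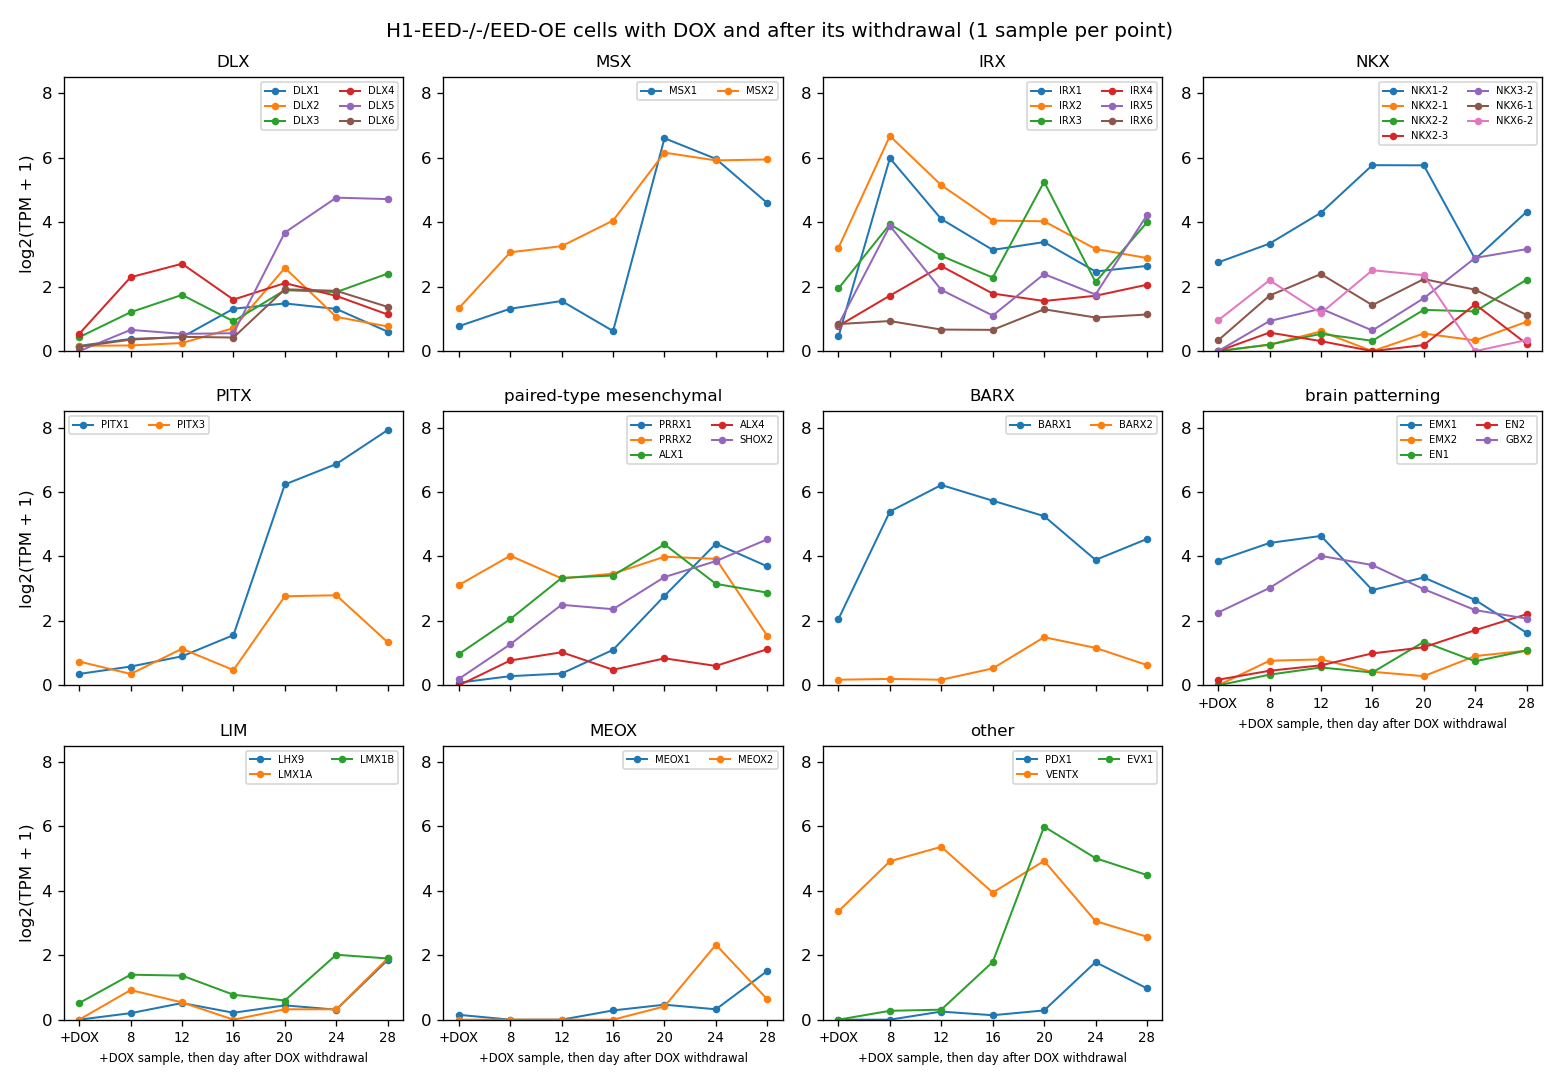
Level of each homeobox gene as log2(TPM + 1) in the +DOX sample and at 6 days after DOX withdrawal in H1-EED-/-/EED-OE cells, 1 panel per family and 1 sample per point. IRX1 and IRX2 peak at day 8 and BARX1 and VENTX at day 12, while PITX1, MSX1, DLX5 and EVX1 stay low to day 16 and are high at day 20.

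The level of the 43 genes at day 28 lay within 2-fold of the mean of EED-/- H1 on the log2(TPM + 1) scale for 37 genes, against 17, 15, 17, 18 and 28 at days 8, 12, 16, 20 and 24. The share of all genes within this limit was not computed. Genes near 0 TPM in both lie within it by their low level. NKX2-3, for example, had 0.17 TPM at day 28 and a mean of 0.39 in EED-/- H1. PITX1, at 241.78 TPM at day 28, fell between the EED-/- H1 samples, and MSX1, at 23.14, just below both. The H1-EED-/-/EED-OE cells are a separate line with 1 sample per day, and the difference from EED-/- H1 was not tested.

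Other homeobox genes of the same kind moved as well. Of 64 related genes outside the 43, 40 passed the filter and were tested, and 21 rose in EED-/- H1, 13 in SUZ12-/- H1, and 22 rose in the double knockout, while 0, 1 and 0 fell. Those that rose in every PRC2-null line included ISL1, of heart progenitors and motor neurons, with 0.04 to 0.44 TPM in retaining and 18.79 to 68.59 in PRC2-null samples, and NKX2-5, the cardiac factor, with 0 to 0.51 and 13.15 to 40.24 TPM. BMP signalling is known to switch on ID, MSX and DLX genes. Of 10 BMP ligands and ID genes, 6, 7 and 7 rose in EED-/- H1, SUZ12-/- H1 and the double knockout. ID1 overlapped between the groups, with 133.13 to 347.91 TPM in the PRC2-null and 102.14 to 446.37 in the retaining samples. ID3 did too, with 125.18 to 216.46 and 100.74 to 262.21 TPM. BMP4 had 92.47 to 293.44 TPM in the PRC2-null samples and 2.50 to 13.41 in the retaining ones, and 7.33, 10.47 and 24.69 TPM at days 8, 12 and 16 before 328.63, 367.61 and 152.24 at days 20, 24 and 28. Other genes of the list were higher already at day 8, with ID2 at 44.42 TPM with DOX and 355.86 at day 8, ID4 at 4.30 and 61.95, and BMP7 at 11.08 and 36.81. ID3 went the other way, at 232.19 TPM with DOX and 107.03 at day 8. The summed level of the list was 469.63 TPM with DOX, 897.78, 610.01 and 752.58 at days 8, 12 and 16, and 1913.64, 1489.73 and 818.25 at days 20, 24 and 28. The part of BMP genes in the levels of the homeobox genes was not tested.

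Markers of other cell types moved with the PRC2-null lines. All 10 endoderm genes rose in each PRC2-null line, and their summed level was 5.82 to 16.82 TPM in the retaining samples, 1130.58 and 2879.73 in EED-/- H1, 16414.5 and 16988.2 in SUZ12-/- H1 and 2001.15 and 2230.33 in the double knockout, with TTR listed at 0 in all retaining samples. AFP alone had 13208.4 and 13695.3 TPM in SUZ12-/- H1, beside 162.52 and 767.99 in EED-/- H1. Between these 2 lines 1 of the 10 genes was called higher and 1 lower in SUZ12-/- H1, with a median difference of -0.35 on the log2(TPM + 1) scale. Of 11 mesoderm genes, 7, 8 and 8 rose, with a summed level of 37.42 to 138.06 TPM in the retaining and 73.88 to 479.65 in the PRC2-null samples, and HAND1, HAND2 and FOXF1 were listed at 0 in the retaining samples. Of 12 trophoblast and amnion genes 8, 9 and 9 rose and 1, 0 and 1 fell (190.91 to 470.12 and 305.45 to 595.48 TPM), and of 8 endothelial and blood genes 6, 6 and 6 (11 to 24.61 and 139.76 to 573.82 TPM). Of 10 neural crest genes 4, 4 and 4 rose and 1, 1 and 1 fell (55.09 to 75.57 and 126.54 to 238.94 TPM). TWIST1 was higher, at 0.14 to 2.72 TPM in the retaining and 14.74 to 54.70 in the PRC2-null samples, as was SNAI2 (0.15 to 0.85 and 15.47 to 89.56). SOX10 and FOXD3 were lower, at 1.57 to 3.19 and 16.83 to 23.40 TPM in the retaining samples and under 1 TPM in every PRC2-null sample. Of 12 neural ectoderm genes 3, 2 and 3 rose and 2, 2 and 2 fell (156.47 to 272.97 and 101.66 to 422.99 TPM). PAX6 was higher, at 0.24 to 0.70 TPM in the retaining and 5.66 to 128.76 in the PRC2-null samples. ZIC1 was also higher (0.21 to 2.33 and 17.95 to 31.64 TPM), and SOX3 was lower (8.72 to 18.44 and 0.09 to 1.45 TPM). SOX1 and NEUROG2 were under 1 TPM in every retaining and every PRC2-null sample. By day, the summed endoderm level was 5.18 TPM with DOX, 92.74 at day 16 and 493.95 and 1196.16 at days 20 and 28, that of the mesoderm genes 41.46, 751.01, 1148.81 and 280.89, that of the trophoblast and amnion genes 121.12, 350.98, 761.93 and 205.81, and that of the neural crest genes 45.36, 51.76, 170.30 and 193.85. Single genes made up much of some sums, and the lists share genes. HAND1, on both the mesoderm and the trophoblast and amnion lists, had 469.61 TPM at day 20. GABRP, of the trophoblast and amnion list, had 102.86 TPM with DOX and 324.81 at day 16. The part of other cell types in the levels of the homeobox genes was not tested.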

How the data were processed

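Total RNA of 19 H1 samples was made into TruSeq RNA libraries. The authors mapped reads to human mRNA on GRCh38 with Bowtie and RSEM, as the methods and the submitters' processing notes name them, and deposited TPM values per gene, which hold no read counts. The files were joined by Ensembl ID, since 33 gene names differed between them. The edgeR test on raw counts that the methods describe was not run for that reason.

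Values were analysed as log2(TPM + 1), and fold changes on this scale understate the change of low genes. Genes with at least 1 TPM in 2 samples were kept, which left 19100 of 33382 for the 12 line samples and 17245 for the 7 H1-EED-/-/EED-OE samples. limma 3.58.1 in R 4.3.3 (eBayes with trend and robust, 6 residual degrees of freedom) was tested on simulated data and fitted with 1 mean per line, then with a slope over days 8 to 28. All 43 genes could be named, with values by sample for the 8 largest rises, for differences between PRC2-null lines and for genes with at least 1 TPM in both WT H1 samples. The genes, families and lists were chosen with earlier results of these data known. Replicate numbers follow accession order and pair no samples. Coordinates are from GENCODE release 44 on GRCh38. Of 13 antisense or divergent transcripts listed, 7 were found. Alternatives were a pseudocount of 0.1, no filter, median-ratio scaling, a replicate block, fits of only the lines compared, an FDR of 5% without a fold limit and leaving out each sample or day, and, for the days, adding the +DOX sample as day 0 or taking WT H1 as the reference.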

Additional observations from a re-analysis of the deposited data

Results flagged for a closer look

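The same contrast with WT H1 gave different results in different PRC2-null lines for 6 genes, by limma's test of the difference between the lines. SUZ12-/- H1 exceeded EED-/- H1 on the log2(TPM + 1) scale by 2.51 for IRX1, 1.77 for NKX2-3, 1.70 for PRRX1, 2.02 for PRRX2 and 1.76 for BARX2. PRRX1 rose in both lines and differed in size, while IRX1, NKX2-3 and BARX2 rose in SUZ12-/- H1 and were not called in EED-/- H1. The double knockout exceeded EED-/- H1 by 2.00 and SUZ12-/- H1 by 1.59 for IRX6, and its difference from SUZ12-/- H1 for NKX2-3 was -1.59. With 1 sample left out, the IRX6 call was kept in 2 of 12 fits against EED-/- H1 and 9 of 12 against SUZ12-/- H1. That of NKX2-3 between the double knockout and SUZ12-/- H1 was kept in 9 of 12. Of the 12 fits that left out 1 sample, the call between SUZ12-/- H1 and EED-/- H1 was kept in 12 for NKX2-3, 11 for IRX1, 10 for BARX2, 9 for PRRX1 and 3 for PRRX2. Of the 6 other alternatives it was kept in 4 for NKX2-3, 5 for IRX1, 4 for BARX2, 5 for PRRX1 and 3 for PRRX2, and the NKX2-3 and BARX2 calls were lost with a pseudocount of 0.1 and in a fit of only these 2 lines. An FDR of 5% without a fold limit is 1 of the 6 and keeps every call by construction. The 2 SUZ12-/- H1 samples lay closer to each other (median absolute log2 difference 0.0863 over genes at 10 TPM or more) than the 2 EED-/- H1 samples (0.239) or the 2 double-knockout samples (0.447).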

How the results depend on the processing

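Of the single-gene differences in PRC2-null lines, 984 of the values under an alternative kept their direction and call, 36 kept their direction and lost the call, and 0 were reversed. Leaving out a sample of neither line compared does not change the estimate, so many of the 984 could hardly move. Of the 36, 11 were double-knockout calls in fits of only the lines compared. With a pseudocount of 0.1 the rises were 27 in EED-/- H1, 31 in the double knockout and 24 in all 3 PRC2-null lines, and the differing genes were 1 between SUZ12-/- H1 and EED-/- H1 and 0 between the double knockout and either of the others. It also gave 19, 21, 22, 28 and 24 genes past 3-fold at days 8, 12, 16, 20 and 24, and with WT H1 as the reference day 8 had 11. At an FDR of 5% with no fold limit there were 1 rise in EZH1-/- H1, 30 in EED-/- H1, 33 in the double knockout and 25 in all 3 lines, falls of 2, 2 and 1 gene in EED-/- H1, SUZ12-/- H1 and the double knockout, 12 genes differing between SUZ12-/- H1 and EED-/- H1, 9 between the double knockout and SUZ12-/- H1, and 9 rising over the days. Fits of only the lines compared gave 9 rises in the double knockout against WT H1, 9 against EZH2-/- H1 and 8 in all 3 lines, 2 falls in SUZ12-/- H1, and 1 (SUZ12-/- H1 and EED-/- H1), 0 (the double knockout and EED-/- H1) and 0 (the double knockout and SUZ12-/- H1) differing genes. Median-ratio scaling gave 2 falls in SUZ12-/- H1, 0 genes differing between the double knockout and EED-/- H1 and 0 rising over the days. With no filter these last 2 counts were also 0. Shares of all tested genes under these alternatives are not given here. A larger count with a pseudocount of 0.1 or without a fold limit is therefore no stronger result about the homeobox genes.

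With replicate numbers as a replicate block, 2 genes fell in SUZ12-/- H1 and 0 differed between the double knockout and EED-/- H1, and no other count was moved by over 1.5 times. The numbers are in accession order, and of 15 pairs of lines only 1 had a correlation of same-numbered deviations over 0.1 (mean -0.003), so they pair no samples. Leaving out 1 sample gave 14 to 20 rises in EED-/- H1, 19 to 22 in SUZ12-/- H1, 18 to 20 in the double knockout and 12 to 14 in all 3 lines, 0 to 1 and 0 to 2 falls in EED-/- H1 and SUZ12-/- H1, and 1 to 7, 0 to 1 and 0 to 5 differing genes between SUZ12-/- H1 and EED-/- H1, the double knockout and EED-/- H1, and the double knockout and SUZ12-/- H1. Leaving out 1 day gave 0 to 3 rising genes. The causes were not tested. The depth that limits low genes is unknown from TPM.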
